A study of Hydra vulgaris with 15 samples.

Results

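The comparison of head with body column in Hydra vulgaris polyps after RNA interference (RNAi) against Zic4 is described here. It rests on 8 of the 15 sequenced libraries, chosen by their titles: 4 heads and 4 body columns of Zic4 RNAi polyps. The other 7 libraries, 4 control heads and 3 control body columns, serve as the reference for which tissue differences were kept, became smaller or appeared. All animals were of the strain Basel1, were starved for 4 days and were electroporated 4 times, and their RNA was taken 1 day after the last electroporation. Controls carry the genotype label wild-type, and the labels do not say which RNA, if any, controls received. Each condition pooled tissue of 20 polyps, and the labels do not say whether a head and a body column with the same replicate number came from the same animals, or whether the body column held the foot. The source label reads entire animal for every sample, while the tissue label names head or body column.

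Hydra is a small tube-shaped cnidarian whose head carries a mouth cone and a ring of tentacles. The outer layer of the tentacles consists of battery cells, epithelial cells that hold stinging cells and no longer divide. Epithelial cells of the body column keep dividing and are displaced towards the tentacles and the foot, where they take on new identities. Zic proteins are zinc finger transcription factors, and RNAi uses RNA that matches a gene to reduce its transcripts. By its title and design text, the study addressed what Zic4 does in each tissue, with tentacle formation and the identity of epithelial cells as its theme.

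The values were expected counts, the estimated number of reads that each assembled transcript gave. Library totals were 19241556 to 20544114 in RNAi heads, 16020768 to 22554104 in RNAi body columns, 17345273 to 21016681 in control heads and 16022221 to 17500311 in control body columns. The filter on low counts left 31142 transcripts. The files do not pair transcript IDs with gene names, so transcripts are grouped by how they behave and a few are given by ID, and gene functions, tissue markers and the level of Zic4 itself were not analysed here. One transcript, GGKF01002923.1, took between 0.840% and 9.77% of the counts of a library. Reads that match similar transcripts are divided between them by estimation, so the value of a single transcript is uncertain. A value of exactly 0 may be an estimate that failed. In pooled tissue, fewer cells of a type and less RNA per cell cannot be told apart. Nothing in the labels says that replicates came from separate cultures, so p-values measure the spread between these libraries, which may be technical.

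After Zic4 RNAi, head and body column differed in 7978 transcripts, 25.6% of those tested (edgeR quasi-likelihood test, Benjamini-Hochberg adjusted p under 0.05, here called). The head had the higher level for 4092 (13.1% of those tested), and the body column for 3886 (12.5%). Differences were larger on the head side, with a median log2 fold change of 0.95 for transcripts higher in the head and −0.72 for those with the opposite sign. An absolute log2 fold change of 1 or more was reached by 1942 towards the head and 1548 towards the body column. No overlap between the heads and the body columns of RNAi animals was found for 7269 of the 7978 (91.1%). Over all tested transcripts, RNAi heads and body columns did not overlap in 29.2%, with heads above in 14.9% and below in 14.3%. Control heads and body columns, 4 against 3 libraries, did not overlap in 36.9%, with heads above in 19.7% and below in 17.1%. With library size alone as scaling, the called transcripts numbered 4511 towards the head and 3089 towards the body column.

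The direction of the tissue difference varied with the number of counts. Among 9295 transcripts with a mean under 1 CPM (counts scaled to a common library size) in RNAi libraries, 370 were called towards the head and 142 towards the body column. Between 1 and 10 CPM, 1458 and 1022 of 12290 transcripts were called towards head and body column. Between 10 and 100 CPM, 1906 of 8017 were called towards the head and 2045 towards the body column, and from 100 to 1000 CPM the numbers were 347 and 589 of 1408. Of the 132 transcripts with 1000 CPM or more, 11 were called towards the head and 88 towards the body column. The excess towards the head under 10 CPM and towards the body column from 100 CPM was also found with library size alone, but between 10 and 100 CPM that scaling gave 2127 towards the head and 1584 towards the body column. The size of called differences shrank as counts grew, with a median absolute log2 fold change of 3.95 under 1 CPM, 1.25 between 1 and 10 CPM and 0.38 from 1000 CPM. Fitted values under 1 CPM include transcripts listed at 0 in a group and depend on the prior count of the fit.

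The transcripts with the largest tissue differences after RNAi were detected in 1 tissue and listed at 0 in every library of the other. GGKF01016113.1 had 47.1, 77.6, 91.8 and 102 CPM in RNAi heads and was listed at 0 in 4 of 4 RNAi body columns. Its mean in RNAi heads was at least 485-fold higher than a floor of 3 counts per body column library (edgeR quasi-likelihood test, adjusted p = 2.99e-08). Control heads had 88.3 to 94.3 CPM of it, and control body columns had 0, 0.183 and 0 CPM, so this head transcript kept its place. GGKF01063178.1 was more uneven, with 8.19, 32.4, 44.5 and 74.6 CPM in RNAi heads and 0 in RNAi body columns, at least 243-fold higher in the RNAi head (edgeR quasi-likelihood test, adjusted p = 2.28e-05). Its control heads lay between 22.8 and 39.6 CPM and its control body columns between 0 and 0.667 CPM.

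In the other direction, GGKF01005705.1 was listed at 0 in 4 of 4 RNAi heads and had 13.6, 21.9, 20.7 and 8.26 CPM in RNAi body columns, at least 106-fold lower in the RNAi head (edgeR quasi-likelihood test, adjusted p = 1.75e-05). It was also at 0 in 4 of 4 control heads and at 23.2 to 48.5 CPM in control body columns. GGKF01015014.1 was listed at 0 in 4 of 4 RNAi heads and had 5.74 to 9.67 CPM in RNAi body columns, at least 52.6-fold lower in the RNAi head (edgeR quasi-likelihood test, adjusted p = 1.41e-06). Control heads were at 0 and control body columns at 5.96 to 8.72 CPM. Both body column transcripts thus stayed undetected in all 8 head libraries.

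In each direction, the called transcript with the highest mean CPM had a small tissue difference without overlap between RNAi heads and RNAi body columns. The choice among called transcripts favours this lack of overlap, so it does not describe all transcripts with many counts. The share of counts taken by GGKF01002923.1, for instance, overlapped between RNAi heads and RNAi body columns. GGKF01004284.1, the called transcript with the highest mean CPM among those higher in the RNAi head, had 15577, 15954, 12300 and 13898 CPM in RNAi heads, against 9179, 9744, 9201 and 9752 CPM in RNAi body columns. Head exceeded body column by 0.61 on the log2 scale with a standard error (SE) of 0.080 (edgeR quasi-likelihood test, adjusted p = 4.31e-05), and in controls it was 0.46 with an SE of 0.086. GGKF01078627.1, its counterpart among transcripts higher in the body column, had 20437 to 22287 CPM in RNAi heads and 22916 to 28194 CPM in RNAi body columns. Its tissue difference was −0.30 (SE 0.062; edgeR quasi-likelihood test, adjusted p = 0.00196) after RNAi and −0.33 (SE 0.067) in controls. For neither of these did the tissue difference change between RNAi and control animals beyond its error, with differences of 0.15 (SE 0.12) and 0.027 (SE 0.091) on the log2 scale.

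Most tissue differences of control animals were found again after Zic4 RNAi. In controls, 8940 transcripts were called (28.7% of those tested), 4538 towards the head (14.6%) and 4402 towards the body column (14.1%). With library size alone the control split was 5329 towards the head and 3238 towards the body column. That scaling moved the control contrast as a whole, with a median over tested transcripts of 0.19 and of 0.072 with composition factors. The RNAi and control contrasts share no library, though they come from 1 fit with a shared spread. In all, 5920 transcripts were called in both treatments in the same direction, 2945 towards the head and 2975 towards the body column. The 2945 were 64.9% of the transcripts called higher in control heads and 72.0% of those called higher in RNAi heads. The 2975 were 67.6% of the transcripts called higher in control body columns and 76.6% of those called higher in RNAi body columns. Across the 10921 transcripts called in either treatment, the RNAi and control log2 fold changes had a Pearson correlation of 0.743 and a Spearman correlation of 0.846. Over all 31142 tested transcripts these were 0.425 and 0.490. Choice by a call favours the higher values. The correlations are a description across transcripts that share libraries and depth.

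Kept differences were close in size on the body column side and less so on the head side. Among the 2975 kept transcripts higher in the body column, the median log2 fold change was −0.78 after RNAi and −0.85 in controls, and 87.3% differed by less than 0.5 on the log2 scale between treatments. Among the 2945 kept transcripts higher in the head, the medians were 1.06 after RNAi and 1.263 in controls, and 68.7% lay within 0.5. The limit of 0.5 was the same on both sides although head-side differences were larger, and the part of this in the lower share was not tested. Losing a call was not the same as a shown change. Of 2943 transcripts called in controls but not after RNAi, the difference between the tissue differences was itself called in 153 (5.20%), and of 1981 called after RNAi but not in controls, in 57 (2.88%).

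Transcripts higher in the control head had a smaller median tissue difference after RNAi, and on the head side the RNAi median was the smaller under either choice. Choosing transcripts by a large value in 1 treatment makes the value in the other smaller on average, so each direction was measured both ways, as a description without a test. The 2634 transcripts called higher in control heads by at least 1 had a median log2 fold change of 1.32 after RNAi and 2.05 in controls, and 84.4% were smaller after RNAi. With the RNAi median taken in log2 CPM for each of the 4 RNAi heads against the mean of RNAi body columns, its SD was 0.065. This SD is not on the scale of the fitted values and leaves out the spread between body columns. The 1942 transcripts called higher in RNAi heads by at least 1 had medians of 1.85 after RNAi and 1.94 in controls, and 47.3% were smaller in controls. The 1684 transcripts called higher in control body columns by at least 1 had medians of −1.53 after RNAi and −1.67 in controls, and the 1548 called higher in RNAi body columns had −1.67 after RNAi and −1.57 in controls. The head-side values were 1.30 after RNAi and 1.96 in controls when transcripts listed at 0 in a whole group were set to the limit that 3 counts per library give.

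**Figure D1:**
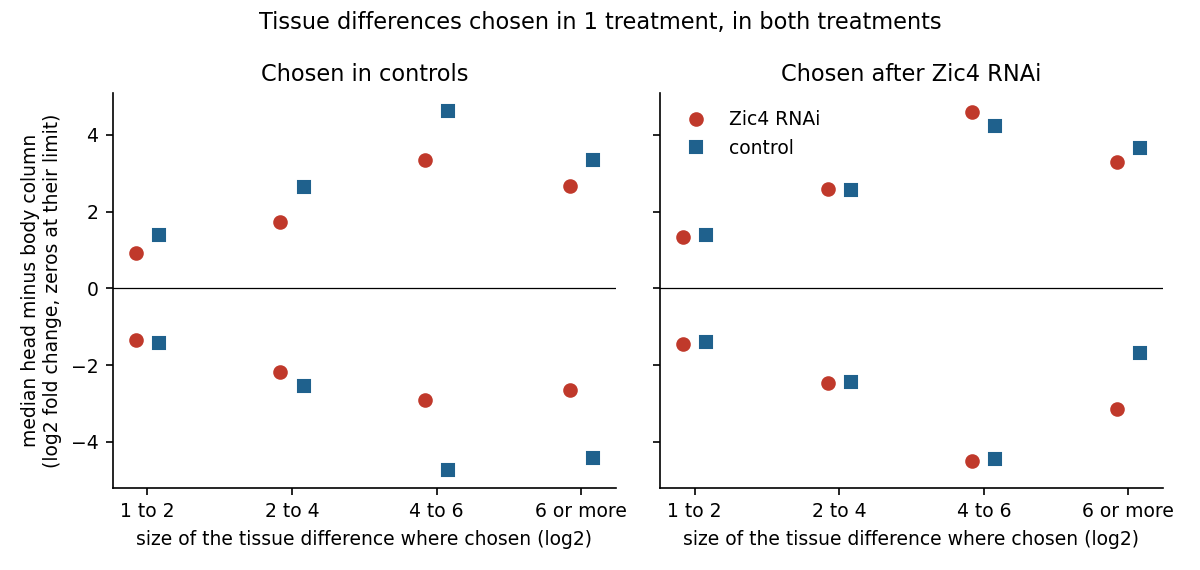
Median log2 fold change between head and body column in Zic4 RNAi (circles) and control animals (squares), for transcripts chosen in controls (left) or after RNAi (right), by the size of the difference where they were chosen. Fold changes against a group listed at 0 are set to the limit from 3 counts per library. On the left the RNAi medians lie nearer to 0 than the control medians in each class of size, as with −2.90 after RNAi and −4.73 in controls for body column differences of 4 to 6.

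For transcripts chosen in controls, the median was smaller after RNAi in each of the 4 size classes on both sides. The medians that follow are set to the limit from 3 counts per library where a group is listed at 0. For the 1287 transcripts higher in control heads by 1 to 2 on the log2 scale, the median was 0.93 after RNAi and 1.38 in controls. For the 753 between 2 and 4 it was 1.73 after RNAi and 2.64 in controls, and for the 221 between 4 and 6 it was 3.34 after RNAi and 4.61 in controls. The 373 of at least 6 had 2.67 after RNAi and 3.34 in controls. Among transcripts higher in control body columns, the 1088 between 1 and 2 had −1.35 after RNAi and −1.41 in controls, and the 385 between 2 and 4 had −2.17 after RNAi and −2.54 in controls. The 107 between 4 and 6 had −2.90 after RNAi and −4.73 in controls, and the 104 of at least 6 had −2.66 after RNAi and −4.41 in controls. With the reverse choice on the head side, medians after RNAi and in controls were 1.34 and 1.38 between 1 and 2, and 2.58 and 2.56 between 2 and 4. They were 4.60 and 4.22 between 4 and 6, and 3.30 and 3.65 from 6, so neither treatment had the smaller median in every class. On the body column side, the 62 transcripts higher in RNAi body columns by 4 to 6 had −4.50 after RNAi and −4.46 in controls. The 76 of at least 6 had −3.14 after RNAi and −1.69 in controls. For the most extreme body column transcripts, each choice thus gave the smaller value in the other treatment.

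Transcripts called higher in control heads by at least 1 held 8.01%, 8.44%, 8.84% and 9.40% of the tested counts in RNAi heads and 2.91% to 3.16% in RNAi body columns. They held 10.2% to 11.8% in control heads and 2.65% to 2.99% in control body columns. Each RNAi head had a smaller share than any control head, which the choice by high control heads favours and which is a description only. Transcripts called higher in control body columns by at least 1 held 3.42% to 4.42% in RNAi heads and 10.8% to 11.5% in RNAi body columns, against 3.41% to 4.05% in control heads and 10.98% to 11.3% in control body columns. On the body column side the RNAi and control ranges overlapped in each tissue.

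As a single measure over all tested transcripts, the gap between tissues was smaller after RNAi. The root mean square difference in log2 CPM between the head and the body column with the same replicate number was 1.57, 1.58, 1.52 and 1.56 in the 4 RNAi pairs and 1.67, 1.79 and 1.71 in the 3 control pairs. RNAi pairs averaged 1.56 ± 0.029 (SD, n = 4) and control pairs 1.72 ± 0.065 (SD, n = 3), without overlap (two-sided exact permutation test, p = 0.0286, which 4 against 3 pairs cannot go below). Whether the numbers pair animals is not known, and over all combinations of a head with a body column the means were 1.55 after RNAi and 1.71 in controls. This measure also contains the spread between replicates, which was 1.21 to 1.33 between RNAi body columns and 1.34 to 1.42 between control body columns, against 1.22 to 1.30 between RNAi heads and 1.19 to 1.30 between control heads. The part of the wider spread of control body columns in the result was not tested. With transcripts of at least 10 CPM alone the permutation p was 0.0571.

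The difference between the tissue differences, RNAi minus control, was called for 488 transcripts, 1.57% of those tested (edgeR quasi-likelihood test, adjusted p under 0.05). It was negative, towards the body column, for 332 (1.07%) and positive for 156 (0.501%). For most of them the control tissue difference became smaller or turned round after RNAi. Of the transcripts called higher in control heads, 297 became less so, and of those called higher in control body columns, 119 became less so. These include 71 that were called in the opposite direction after RNAi. Another 72 had a wider tissue difference after RNAi or one called after RNAi only. Of all transcripts called higher in control heads 6.81% had a called difference between treatments, and of those called higher in control body columns 2.77%. The number is sensitive to single libraries: it was 313 without control body column replicate 3, 322 without RNAi body column replicate 1 and 323 without RNAi head replicate 2. With replicates 2, 3 and 4 alone it was 188, with RNAi body columns 1 and 2 alone 318, and the DESeq2 Wald test called 1805.

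**Figure D2:**
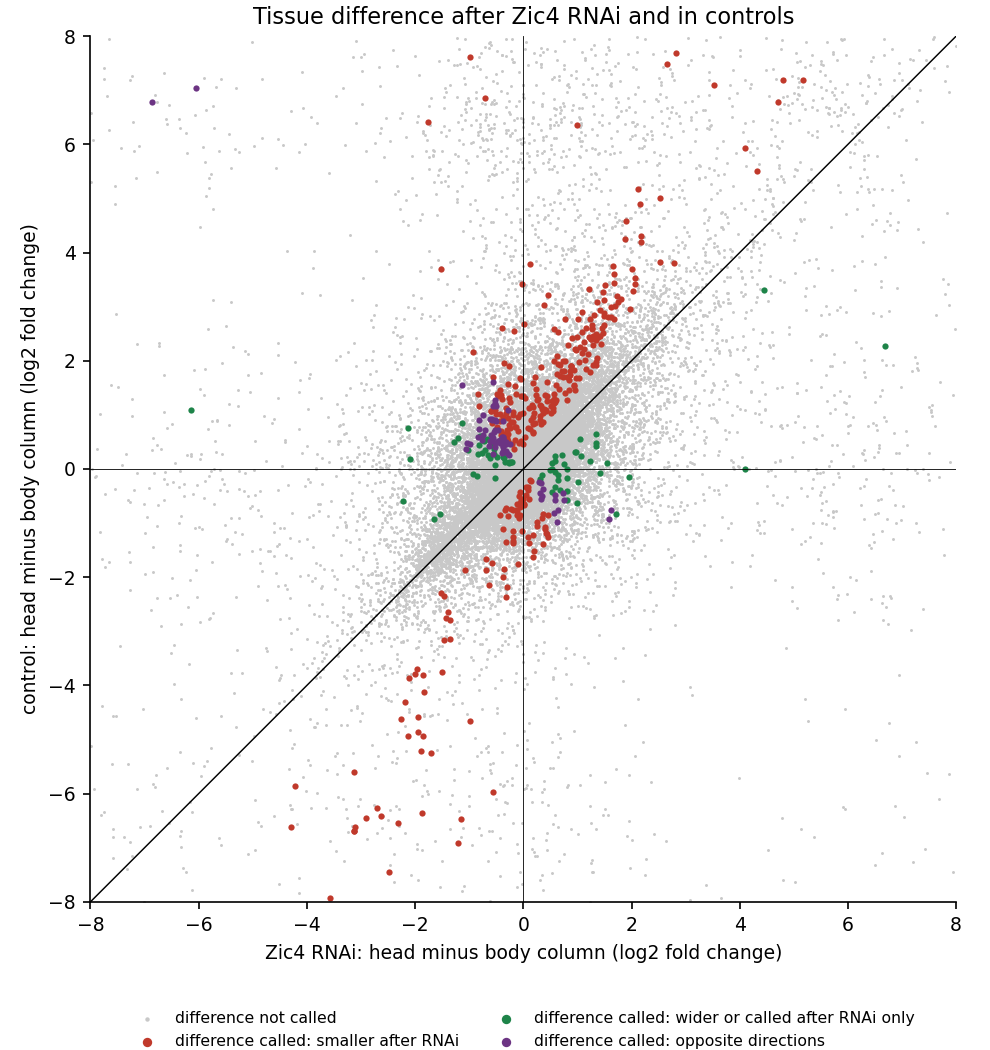
Log2 fold change between head and body column after Zic4 RNAi (horizontal) and in controls (vertical) for each tested transcript; the line marks equal values, and 277 transcripts beyond 8 on either axis are not drawn. Coloured transcripts have a called difference between treatments; the 297 higher in control heads and the 119 higher in control body columns lie on the sides of the line where the RNAi difference is smaller or of opposite sign.

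Among the 297 transcripts that became less head-biased, 140 were still called higher in the RNAi head, 101 were no longer called, and 56 were called higher in the RNAi body column. The 140 had a median tissue difference of 1.18 after RNAi and 2.30 in controls. Their CPM summed to 7203, 7098, 6422 and 6773 in RNAi heads and 3233 to 3450 in RNAi body columns, against 10477 to 13096 in control heads and 2593 to 2750 in control body columns. In this sum RNAi heads lay between control heads and control body columns, without overlap with either. The choice of transcripts by calls in the same libraries favours that order, so it is a description only. The 101 had a median of −0.19 after RNAi and 1.13 in controls, and their summed CPM was 2811 to 3007 in RNAi heads and 2887 to 2967 in RNAi body columns, against 4459 to 4939 in control heads and 2270 to 2545 in control body columns. In RNAi animals the tissues overlapped in this sum, which follows from the choice of transcripts without a call after RNAi.

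The 56 transcripts whose tissue bias turned round had a median log2 fold change of −0.53 after RNAi and 0.59 in controls. They summed to 1281 to 1486 CPM in RNAi heads and 1860 to 1920 CPM in RNAi body columns, against 2269 to 2345 CPM in control heads and 1523 to 1550 CPM in control body columns. Including 15 of the opposite kind, 71 of the 77 transcripts called in opposite directions in the 2 treatments had a called difference. Opposite calls come from the same libraries and favour a call in the difference, so this count and the sums are a description only.

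Loss of head bias involved both tissues, with the larger part in the head. Over the 297 transcripts the median log2 change between RNAi and control was −0.80 in heads and 0.39 in body columns, and the head part was the larger in 77.1% of them and in 46.2% of all tested transcripts. In heads, 234 of the 297 were called lower after RNAi, where 4.76% of all tested transcripts were called and 2.11% were lower. In body columns 49 were called higher, where 2.06% of all tested were called and 1.51% were higher. These changes use the same libraries as the difference that chose the transcripts and are a description only. With library size alone the numbers were 247 and 16, and the medians −0.91 and 0.33.

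Most of the 119 transcripts that became less biased towards the body column changed mainly in the head, which had the larger part in 83.2%. Of the 119, 52 were still called higher in the RNAi body column, 52 were no longer called and 15 were called higher in the RNAi head. Among the 15 the head part was the larger in 46.7%, with 8 called higher in heads and 7 called lower in body columns after RNAi. The first 52 were strongly biased, with a median tissue difference of −1.92 after RNAi and −4.60 in controls, or −4.21 in controls with transcripts listed at 0 at their limit. Their CPM summed to 2728 to 3051 in RNAi heads and 6173 to 6711 in RNAi body columns, against 1483 to 1853 in control heads and 6159 to 6991 in control body columns. All 4 RNAi heads were above all 4 control heads, while the body columns of the 2 treatments overlapped. The same libraries chose these transcripts, so their sums are a description only. In heads, 50 of these 52 were called higher after RNAi (2.65% of all tested). With library size alone 46 were called higher in heads.

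The second 52 transcripts, no longer called after RNAi, had a median tissue difference of −0.014 after RNAi and −1.02 in controls. Their summed CPM was 5176 to 5560 in RNAi heads and 5237 to 5625 in RNAi body columns, against 3153 to 3722 in control heads and 5401 to 5789 in control body columns. The overlap of the RNAi tissues in this sum follows from the choice of transcripts without a call after RNAi. In heads 41 of them were called higher after RNAi, and in body columns 6 were called lower (0.543% of all tested) and 1 higher. These counts also use the libraries that chose the transcripts and are a description only.

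**Figure D3:**
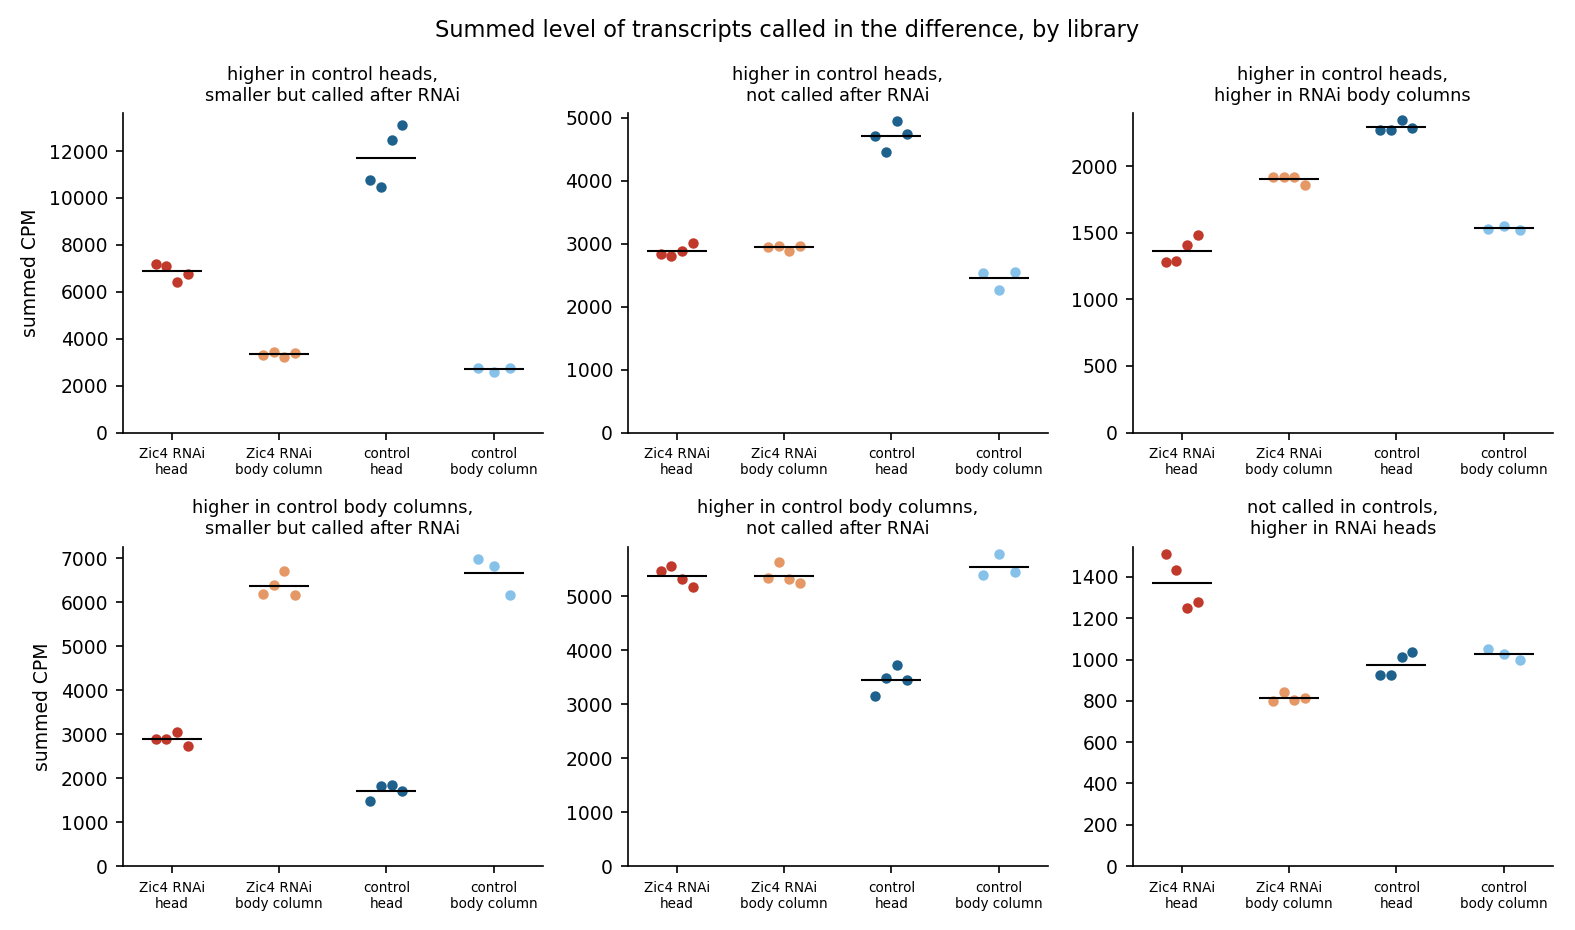
Summed CPM per library (points, line at the group mean) of transcripts with a called difference between the tissue differences, in Zic4 RNAi heads and body columns and control heads and body columns. The libraries shown also chose the transcripts. Top, transcripts higher in control heads, whose RNAi heads lie under the control heads; bottom left and centre, transcripts higher in control body columns, whose RNAi heads lie above the control heads; bottom right, transcripts called higher in the RNAi head and not called in controls.

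GGKF01038458.1 and GGKF01028247.1 showed the largest fitted loss of body column bias. GGKF01038458.1 had 1.11, 0.591, 2.14 and 0.855 CPM in RNAi heads and 5.46, 5.58, 6.84 and 4.58 CPM in RNAi body columns, while control heads were listed at 0 in 4 of 4 libraries and control body columns had 6.09, 4.38 and 4.72 CPM. It was detected in every RNAi head and in none of the control heads, with body columns of the 2 treatments overlapping. The tissue difference was −2.25 after RNAi (SE 0.37) and at least 33.5-fold in controls, and the difference between treatments was called (edgeR quasi-likelihood test, adjusted p = 0.00157). GGKF01028247.1 had 4.27, 4.30, 4.04 and 3.17 CPM in RNAi heads and 9.15, 6.78, 12.3 and 6.80 CPM in RNAi body columns. In controls it had 0, 0.309, 0 and 0.102 CPM in heads and 9.10 to 9.80 CPM in body columns. The difference between treatments was 5.32 on the log2 scale with an SE of 0.72 (edgeR quasi-likelihood test, adjusted p = 0.00253).

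On the head side, the largest fitted losses belonged to transcripts that were listed at 0 in the control body columns and present in the RNAi body columns. GGKF01055877.1 had 10.2, 28.4, 14.2 and 17.4 CPM in RNAi heads and 27.2, 25.05, 31.6 and 7.5 CPM in RNAi body columns, against 7.28, 7.11, 18.5 and 5.79 CPM in control heads and 0 in 3 of 3 control body columns. The tissues overlapped after RNAi, with a tissue difference of −0.38 (SE 0.47), whereas the control head mean was at least 53.6-fold higher (edgeR quasi-likelihood test of the difference, adjusted p = 0.00508). GGKF01046104.1 had 0, 10.1, 17.8 and 28.8 CPM in RNAi heads and 25.3 to 34.0 CPM in RNAi body columns, against 6.02 to 17.5 CPM in control heads and 0 in 3 of 3 control body columns. Its difference passed the threshold (edgeR quasi-likelihood test, adjusted p = 0.0367) but not in 12 of the 15 fits that left out 1 library, where the edgeR adjusted p reached 0.0903 without control body column replicate 3. It held without control head replicate 2, RNAi head replicate 1 or RNAi head replicate 4. RNAi head replicate 1 was also listed at 0.

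Bias that turned round is shown by GGKF01024241.1 and GGKF01007169.1. GGKF01024241.1 had 16.7, 16.5, 11.9 and 12.5 CPM in RNAi heads and 4.98, 5.31, 4.66 and 4.32 CPM in RNAi body columns, against 2.62, 2.57, 2.34 and 2.59 CPM in control heads and 2.95, 5.42 and 6.06 CPM in control body columns. RNAi heads were the highest group and control heads the lowest. The tissue difference was 1.58 (SE 0.20) after RNAi and −0.93 (SE 0.22) in controls, and the difference between them was 2.51 (SE 0.29; edgeR quasi-likelihood test, adjusted p = 0.000979). GGKF01007169.1 moved in both tissues, with 9.85, 14.8, 15.1 and 18.6 CPM in RNAi heads and 23.4, 20.2, 21.3 and 21.2 CPM in RNAi body columns, against 29.7 to 35.4 CPM in control heads and 10.1 to 11.7 CPM in control body columns. RNAi heads lay under RNAi body columns and under control heads, and overlapped the control body columns. Its tissue difference was −0.56 (SE 0.14) after RNAi and 1.61 (SE 0.16) in controls, a difference of −2.18 (SE 0.22; edgeR quasi-likelihood test, adjusted p = 0.000333).

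**Figure D4:**
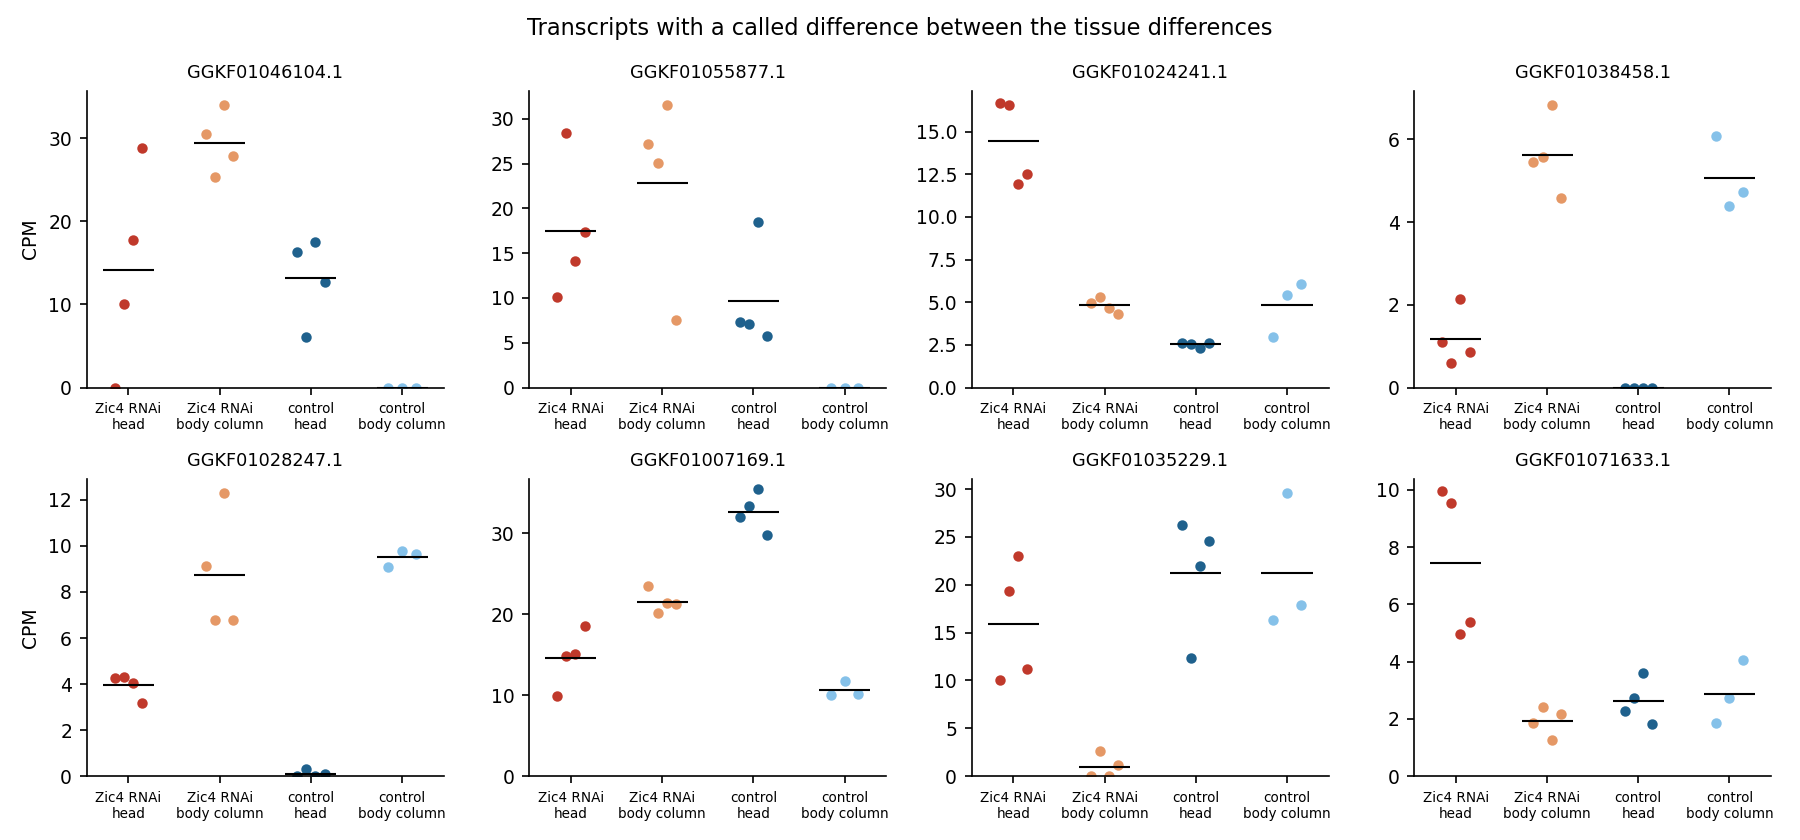
CPM per library (points, line at the group mean) of 8 transcripts with a called difference between the tissue differences, in Zic4 RNAi heads and body columns and control heads and body columns. GGKF01024241.1 and GGKF01007169.1 change the order of the tissues, and GGKF01038458.1 and GGKF01028247.1 appear in RNAi heads above the level of control heads.

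Tissue differences that appeared or widened after RNAi were fewer and smaller. Of the 72 transcripts, 25 were called higher in the RNAi head and 32 higher in the RNAi body column without a call in controls, and 12 and 3 widened in these directions. With library size alone as scaling, the difference was called for 44 of the 72, beside 276 of the 297 and 84 of the 119. The 25 had a median tissue difference of 0.81 after RNAi and −0.12 in controls, and they summed to 1512, 1433, 1250 and 1279 CPM in RNAi heads and 799 to 842 CPM in RNAi body columns. In controls the sums were 925 to 1036 CPM in heads and 997 to 1051 CPM in body columns. RNAi heads were above and RNAi body columns below all 7 control libraries in this sum, which uses the libraries that chose the transcripts. The 32 had medians of −0.68 after RNAi and 0.28 in controls, and summed to 923 to 1044 CPM in RNAi heads and 1343 to 1409 CPM in RNAi body columns, against 1210 to 1286 CPM in control heads and 1058 to 1126 CPM in control body columns.

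Single transcripts of this kind passed the threshold narrowly. GGKF01035229.1 had 10.1, 19.4, 23.01 and 11.2 CPM in RNAi heads and 0, 2.57, 0 and 1.21 CPM in RNAi body columns, against 12.4 to 26.2 CPM in control heads and 16.3 to 29.6 CPM in control body columns. Only its RNAi body columns stood apart from the other libraries. The tissue difference was 4.11 (SE 0.74) after RNAi and 0.00 (SE 0.63) in controls (edgeR quasi-likelihood test of the difference, adjusted p = 0.0491). It was lost in 14 of the 15 fits that left out 1 library, all but the one without RNAi body column replicate 2, with an edgeR adjusted p of up to 0.127. GGKF01071633.1 had 9.95, 9.56, 4.96 and 5.38 CPM in RNAi heads and 1.27 to 2.41 CPM in RNAi body columns, against 1.83 to 3.62 CPM in control heads and 1.86 to 4.06 CPM in control body columns (edgeR quasi-likelihood test of the difference, adjusted p = 0.0454, lost in 11 of those 15 fits). GGKF01030247.1 had 1.61 to 3.99 CPM in RNAi heads and 4.02 to 8.45 CPM in RNAi body columns, against 7.72 to 10.3 CPM in control heads and 3.83 to 5.51 CPM in control body columns (edgeR quasi-likelihood test of the difference, adjusted p = 0.0436, lost in 12). GGKF01064293.1 had 1.51 to 3.70 CPM in RNAi heads and 4.88 to 7.12 CPM in RNAi body columns, against 5.44 to 7.37 CPM in control heads and 3.83 to 5.58 CPM in control body columns (edgeR quasi-likelihood test of the difference, adjusted p = 0.0310, lost in 9). For these last 3 transcripts, as for the first, every RNAi head lay on one side of every RNAi body column. That held for 91.1% of all transcripts called between RNAi tissues, and this class was chosen among such calls. For GGKF01030247.1 the nearest values of the tissues were 3.99 and 4.02 CPM. GGKF01030247.1 and GGKF01064293.1 had fitted control differences towards the head, of 0.85 (SE 0.33) and 0.50 (SE 0.28), which were not called. After RNAi their differences were −1.14 (SE 0.31) and −1.28 (SE 0.26), so the fitted direction turned round in both. Among the fits that left out 1 library, the call for GGKF01071633.1 held without control body column 2, control head 3 or RNAi heads 3 or 4, and that for GGKF01030247.1 without RNAi body columns 1 or 3 or RNAi head 3. The call for GGKF01064293.1 held without control body column 2, control head 4, RNAi body columns 1 or 3 or RNAi heads 1 or 3. In the other fits the edgeR adjusted p reached 0.117 for GGKF01071633.1, 0.124 for GGKF01030247.1 and 0.0979 for GGKF01064293.1.

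Transcripts nearly restricted to 1 tissue were fewer after RNAi than in controls. A transcript was taken as head-restricted when each head had at least 10 CPM and the mean in body columns was under 2% of that in heads, and as body-column-restricted the other way round. After RNAi, 36 transcripts were head-restricted and 3 body-column-restricted, against 76 and 24 in controls. Of the 36, 33 were head-restricted in controls too, while 0 of the 3 were body-column-restricted in controls. Of the 43 that lost head restriction, 36 no longer met the limit on the body column share and 19 no longer met the limit on the head level. The difference between the tissue differences was called for 7 of the 76 and for 12 of the 24, beside 1.57% of all tested. It was called for 0 of the 36 and 0 of the 3 chosen after RNAi. The libraries that chose each set also enter this difference, so these counts are a description only.

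Levels of these restricted transcripts in the other tissue were not even between libraries. As a median over the 76 head-restricted transcripts, RNAi body columns 1 to 4 had 0.437%, 0.215%, 1.51% and 1.98% of the control head mean, and control body columns 0.149% to 0.311%. RNAi body columns 3 and 4 thus stood above the other 5 body columns. Without them, 55 transcripts were head-restricted and 5 body-column-restricted after RNAi. The part of these higher levels in the smaller number of restricted transcripts was not otherwise tested. With a limit of 5% in place of 2%, 86 were head-restricted and 12 body-column-restricted after RNAi, against 112 and 43 in controls.

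The 24 transcripts restricted to the control body column were present in every RNAi head as a group. Their median level, relative to the control body column mean, was 8.21%, 9.999%, 9.66% and 7.16% in RNAi heads and 69.9% to 93.6% in RNAi body columns. In control heads it was 0%, 3.53%, 0.0574% and 0.197%, where control head replicate 2 stood above the other 3. The 4 RNAi heads lay above the 4 control heads, including replicate 2, but the choice required low control heads, so this is a description only. In 14 of the 24 the RNAi head mean was over 10% of the RNAi body column mean, and the highest share was 27.97%. The 76 head-restricted transcripts had medians of 63.3%, 81.4%, 83.4% and 90.3% of the control head mean in RNAi heads.

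**Figure D5:**
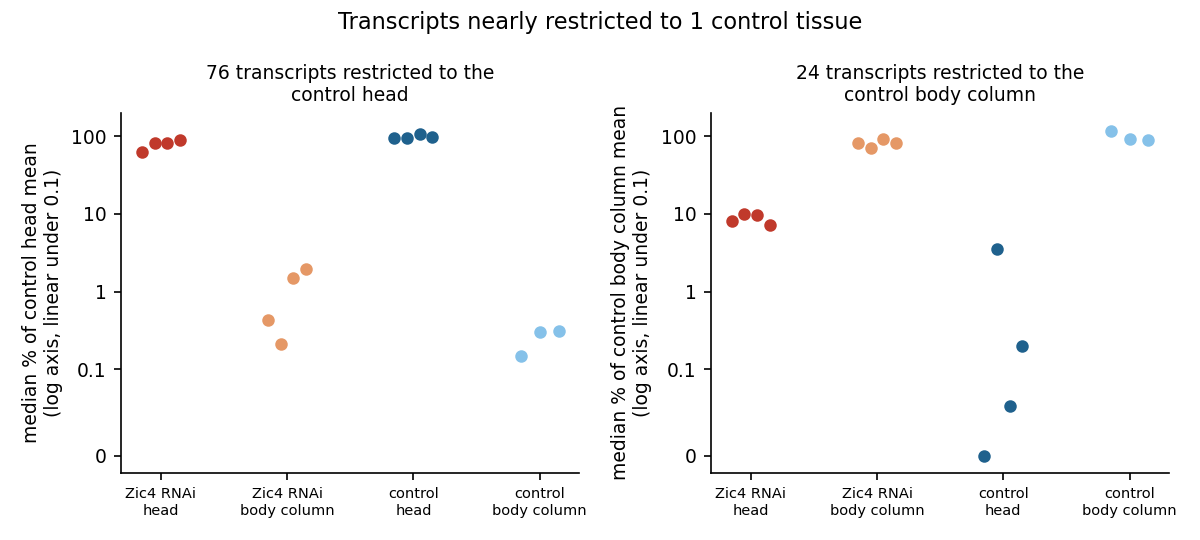
Median level of transcripts nearly restricted to the control head (left, 76 transcripts) or the control body column (right, 24) in each library, as a percentage of their mean in that control tissue, on a log axis that is linear under 0.1. On the right the 4 RNAi heads sit between 7.16% and 9.999%, above all control heads; on the left RNAi body columns 3 and 4 sit above the other body columns.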

How the data were processed

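The authors deposited 1 table of expected counts for 79784 contigs in 15 libraries. Of its nonzero values 74.2% were not whole. Salmon and DESeq2 1.26.0 are listed in the submitters' processing notes, and settings and reference are not given in the sources used here. Libraries were stranded and made from polyadenylated RNA, per the labels' protocols. Columns were matched to samples by title. None of the IDs matched a table of 28925 RefSeq genes, so lists of marker genes could not be used.

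Expected counts were rounded, changing a library total by at most 145 counts. The filter filterByExpr (edgeR 4.0.16, R 4.3.3) left 31142 transcripts holding 99.7% to 99.8% of each library. Differences were tested with edgeR's quasi-likelihood test in 1 model of 15 libraries with 4 group means and TMM factors, which correct for composition. P-values were adjusted with Benjamini and Hochberg's method, threshold 0.05. The fit was also run on simulated counts with changes put into RNAi heads alone, and its results are not given here. Those counts did not model the division of reads between similar transcripts. CPM are relative to the tested counts after TMM scaling, and log2 CPM used a prior count of 2. A group listed at 0 was given a floor of 3 counts per library, which covers counting error only.

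Transcripts were named by rule, at most 2 in each direction per class: the largest RNAi tissue difference without overlap, the largest loss of difference, and the largest gain, each with at least 5 CPM in the highest group. The class of opposite directions and that of highest mean CPM gave 1 per direction. Limits for restricted transcripts, the members and the lists were chosen with earlier results of these data known. Alternatives were DESeq2 1.42.0, other scalings and filters, subsets of libraries and a block.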

Additional observations from a re-analysis of the deposited data

Results flagged for a closer look

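Among 66 groups of 4 libraries, 4 held a library far from the other 3, where chance gives about 1 in 20 groups. GGKF01024241.1 had 2.34 CPM in its lowest control head, with the other 3 close together just above. GGKF01055877.1 had 18.5 CPM in 1 control head, above 5.79 to 7.28 CPM in the other 3. Body-column-restricted transcripts took 0.00847% of the tested counts in control head replicate 2, more than in the other 3 control heads. The 119 transcripts that lost body column bias summed to 8271 CPM in RNAi head replicate 4, below the other 3 RNAi heads.

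The tissue difference itself depended on treatment for 488 transcripts by the edgeR quasi-likelihood test of the interaction. The fitted difference, RNAi minus control on the log2 scale, was 2.51 for GGKF01024241.1 and −2.18 for GGKF01007169.1. It was 7.33 for GGKF01038458.1, −12.0 for GGKF01046104.1 and −10.9 for GGKF01055877.1, which each have a group listed at 0, so that these values depend on the fit's prior count. It was 5.32 for GGKF01028247.1, 4.11 for GGKF01035229.1, 2.10 for GGKF01071633.1, −1.99 for GGKF01030247.1 and −1.78 for GGKF01064293.1.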

How the results depend on the processing

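Leaving out each of the 15 libraries in turn gave 313 to 444 transcripts for the difference between treatments, 6963 to 7988 between tissues after RNAi and 7614 to 8968 in controls. That difference was also smaller with a change of at least 1 required (309), with replicates 2, 3 and 4 alone (188), with RNAi body columns 1 and 2 alone (318, chosen after seeing the data), and larger with DESeq2 (1805). Requiring at least 1 on the log2 scale gave 3490 transcripts between tissues after RNAi, 4318 in controls and 2625 kept. The causes were not tested, beyond fewer libraries or a stricter limit. Same-numbered head and body column libraries did not deviate together (correlations −0.036 to 0.0053, and no body column correlated best with its own number). These correlations run over all tested transcripts, with low counts included, and over few libraries per group. They cannot settle whether same-numbered libraries share an origin. A replicate block gave 90 transcripts for the difference, 6484 between tissues after RNAi and 6540 in controls.

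The median after RNAi of transcripts higher in control heads was 1.22 with DESeq2, 1.39 without a filter and 1.40 with RNAi body columns 1 and 2 alone. The control median of transcripts higher in RNAi heads was 1.83 with a mean of at least 1 CPM. The tissue gap, RNAi minus control, was −0.17 at 10 CPM or more (exact permutation p = 0.0571) and −0.20 to −0.13 without 1 pair (exact permutation p of 0.0667 to 0.1, the smallest those designs allow). Alternatives for restricted transcripts were added after seeing the data. RNAi body columns 1 and 2 alone gave 55 head-restricted and 5 body-column-restricted. A limit of 5% gave 86 and 12 after RNAi and 43 body-column-restricted in controls. A minimum of 5 CPM gave 7 body-column-restricted after RNAi and 38 in controls. Named transcripts kept their call in 205 values under alternatives, lost it in 67 and reversed in 0. At this depth, transcripts under 1 CPM were called between RNAi tissues in 5.51% of cases, and what size of difference could be detected there was not measured.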
